A study of Mus musculus with 6 samples.

Results

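The replication-dependent core histone genes encode the H2A, H2B, H3 and H4 proteins that package newly copied DNA. They were taken by their symbols, as the protein-coding genes named H2ac, H2bc, H3c or H4c followed by a number, which gave 58 of the 56748 genes listed: 17 of class H2A, 17 of H2B, 12 of H3 and 12 of H4. Their ribosome footprints, the short mRNA stretches that translating ribosomes shield from a nuclease, were compared between wild-type (WT) and Mov10 knockout mice. Mov10 is an RNA helicase. All 6 libraries came from Lin-c-Kit+ cells, a lineage-depleted fraction carrying the stem cell factor receptor that the labels call hematopoietic stem cells, and all mice had received 4.5 Gy of irradiation (IR) 12 days earlier. The groups were 3 WT and 3 Mov10 knockout libraries, with no unirradiated group. The labels give no age, sex or strain, do not describe the knockout allele, and do not say whether the 3 libraries of a genotype are separate animals, so the p-values measure the spread between these libraries, which may be technical. All levels are normalized reads (reads of a gene divided by a size factor for its library), written as mean ± SD over n = 3 libraries of a genotype, and a fold divides the knockout by WT unless called lower.

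A nucleosome holds a pair of each core histone, so the 4 classes are needed together and in bulk while DNA is copied. Mammals keep many copies of each gene, grouped in clusters and nearly identical in coding sequence, and transcribe them in S phase. Their mRNAs end in a stem-loop in place of a poly(A) tail, and the stem-loop binding protein SLBP carries them through processing, translation and decay. Because the copies are so alike, a footprint can match several of them, and how reads with several matches were treated is not given in the sources used here. A level of 1 gene can therefore hold reads of its relatives, and each class was also summed.

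The knockout libraries were shallower, with 1118345 to 1352517 reads against 2260348 to 2499634 in WT, so depth differed along with genotype. For a gene without reads the floor was 3 reads, equal to 4.02 to 4.85 normalized reads in the knockout and 1.84 to 2.04 in WT, which covers counting error only. Mov10 itself was at 110.4, 106.2 and 104.3 in the WT libraries and at 51.0, 89.0 and 46.3 in the knockout libraries. It was lower in every knockout library but did not pass the test (log2 fold change -0.84, SE 0.27, limma adjusted p 0.0598), and the labels do not say which part of the gene was removed. Kit, the receptor behind the gate, was at 1099 ± 15.8 in WT and 1122 ± 35.7 in the knockout.

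Core histone genes moved in both directions. Of the 58 genes, 50 had reads and 47 reached the mean of at least 1 normalized read needed for testing. Among these, 5 genes rose in the knockout, 10 fell and 32 did not pass an adjusted p of 0.05 (limma on log2(value + 1), Benjamini-Hochberg over 17114 genes). The share called was 31.9%, against 21.2% of all genes. It was 10.6% for higher calls, against 10.3% of all genes, and 21.3% for lower calls, against 10.9%. The 5 that rose were H2ac6, H3c11, H3c7, H4c14 and H4c6. The 10 that fell were H2ac4, H2ac7, H2ac10, H2ac11, H2ac12, H2ac24, H2bc12, H3c2, H3c3 and H4c18. The median log2 fold change of the 47 genes was -1.22, also with H2bc12 and H4c18 set at their bounds, against -0.17 for all genes tested. A library without reads pulls the fitted value down, and 14 of the 47 genes had a knockout library at 0. As log2 ratios of the group means, with the same bounds, the median was -0.79, against 0.0024 for all genes, and 30 of the 47 genes were below 0 in place of 33. All knockout libraries lay below all WT libraries for 22 of the 47 genes (46.8%, against 22.9% of all genes) and above them for 7 (14.9%, against 16.9%), while the groups overlapped for 18.

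The 8 genes with no read were H2ac1, H2ac18, H2ac19, H2ac23, H2bc18, H2bc23, H3c13 and H3c14, and H2bc1, H2bc24 and H4c17 had a few reads in WT libraries alone and were not tested. H2bc12 and H4c18 had no read in any knockout library and passed the filter through WT alone. Counts of lower genes over those tested therefore include genes that could only differ downward. In bulk libraries, fewer cells of a type and less RNA per cell cannot be told apart.

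**Figure D1:**
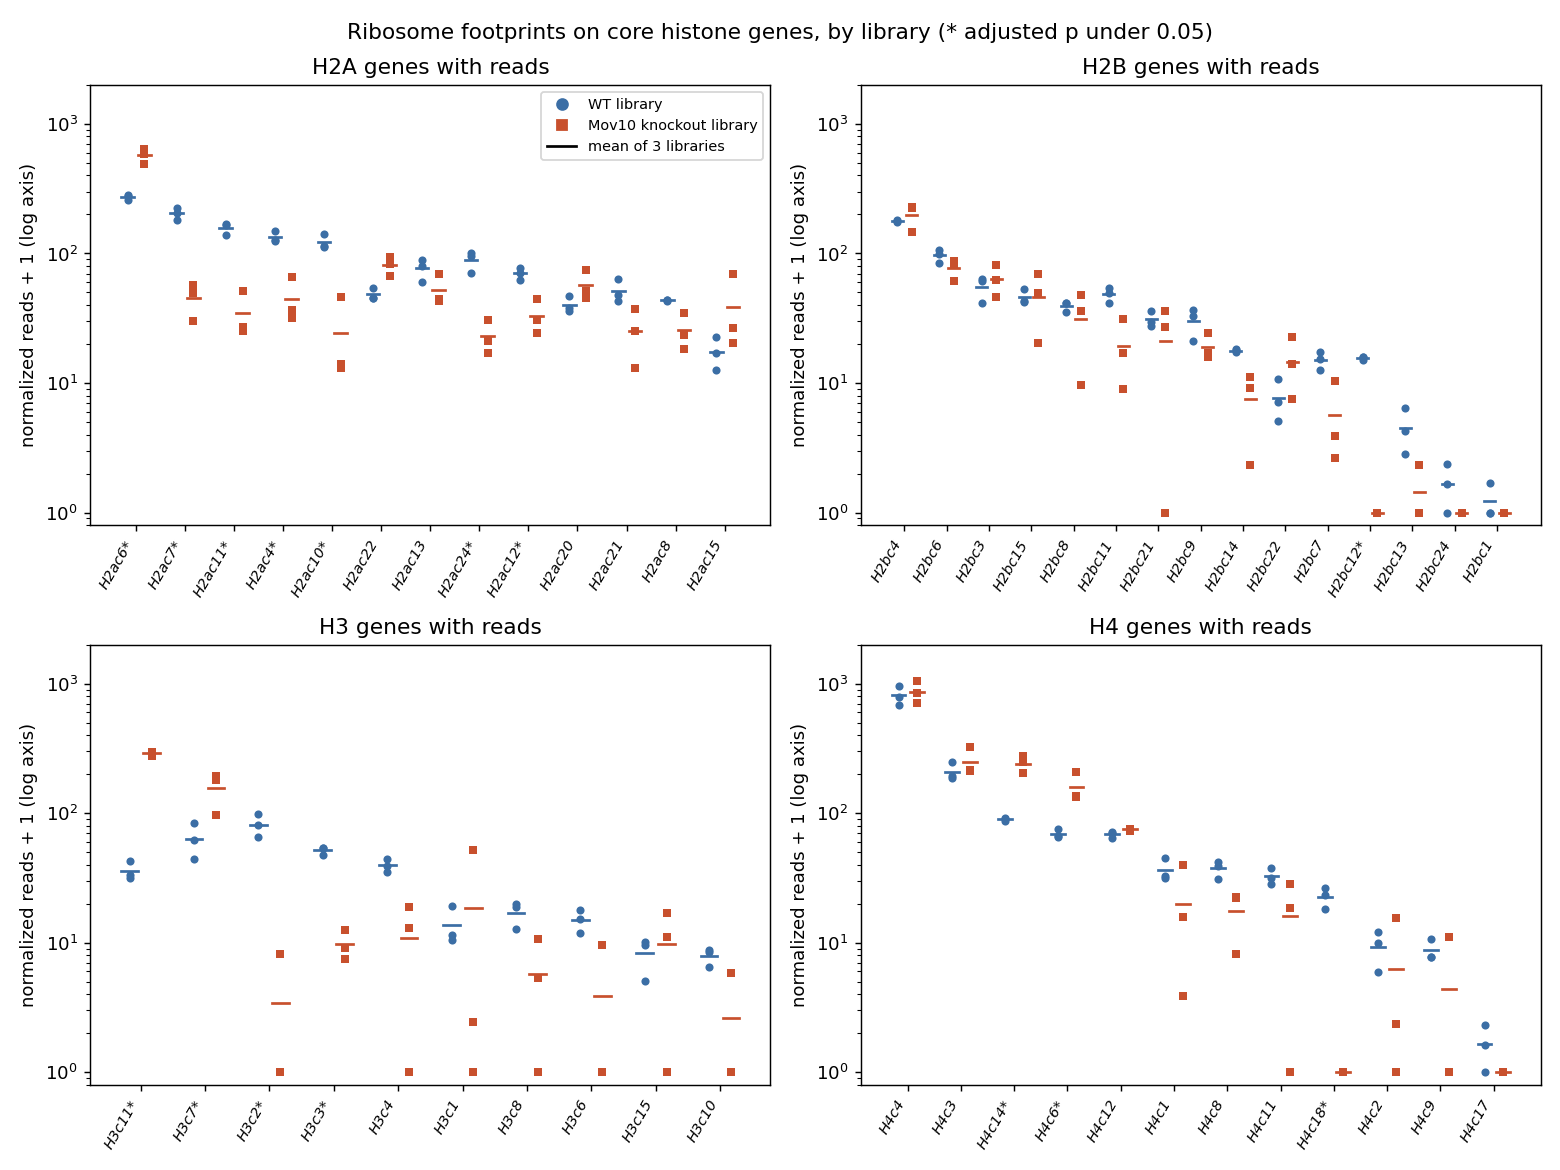
Normalized reads plus 1 (log axis) of the 50 core histone genes with reads in each library, by class, with circles for WT libraries, squares for Mov10 knockout libraries, bars for group means and an asterisk for an adjusted p under 0.05. Before the 1 is added, H3c11 stands at 278 to 297 in the knockout libraries against 30.5 to 41.6 in WT, and H3c2 at 0, 0 and 7.24 against 64.4 to 98.0.

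The start regions of called genes are shown because clustered histone genes are known to share short promoter elements: a TATA box, CCAAT boxes and, in H2B promoters, the octamer bound by OCT1. RefSeq windows on GRCm38.p6, from 250 bases before to 50 bases after the annotated start, were matched to 52 of the 58 genes and to 13 of the 15 called ones, while the footprint table is on GRCm39. The 7 windows below run 5′ to 3′ on the gene's own strand, with 3 motifs in capitals wherever they occur on either strand. They are the TATA box as TATAAA (read as TTTATA from the other strand), the CCAAT box (read as ATTGG from the other strand), and the octamer as ATTTGCAT (read as ATGCAAAT from the other strand). No match in these windows overlaps another.
H2ac6, higher in the knockout, chr13:23683910-23684209, minus strand: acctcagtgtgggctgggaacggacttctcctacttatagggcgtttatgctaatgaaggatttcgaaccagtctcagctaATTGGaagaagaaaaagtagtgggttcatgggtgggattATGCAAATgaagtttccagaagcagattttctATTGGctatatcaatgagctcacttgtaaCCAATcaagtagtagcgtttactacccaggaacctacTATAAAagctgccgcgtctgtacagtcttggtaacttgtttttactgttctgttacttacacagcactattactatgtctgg
H2ac7, lower in the knockout, chr13:23574131-23574430, plus strand: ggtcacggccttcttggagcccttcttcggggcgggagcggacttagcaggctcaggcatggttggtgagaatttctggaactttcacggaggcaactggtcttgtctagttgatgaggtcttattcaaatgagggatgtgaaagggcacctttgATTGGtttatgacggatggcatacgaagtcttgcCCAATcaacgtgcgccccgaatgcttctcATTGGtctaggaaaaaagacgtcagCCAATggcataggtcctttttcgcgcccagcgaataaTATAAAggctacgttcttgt
H2bc12, lower in the knockout, chr13:22035571-22035870, plus strand: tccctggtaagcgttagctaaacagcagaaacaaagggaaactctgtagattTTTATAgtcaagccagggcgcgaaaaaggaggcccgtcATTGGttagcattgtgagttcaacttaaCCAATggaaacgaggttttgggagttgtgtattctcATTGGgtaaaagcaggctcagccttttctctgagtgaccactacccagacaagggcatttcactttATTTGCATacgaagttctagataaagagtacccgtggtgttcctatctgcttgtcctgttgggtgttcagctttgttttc
H3c11, higher in the knockout, chr13:21783348-21783647, minus strand: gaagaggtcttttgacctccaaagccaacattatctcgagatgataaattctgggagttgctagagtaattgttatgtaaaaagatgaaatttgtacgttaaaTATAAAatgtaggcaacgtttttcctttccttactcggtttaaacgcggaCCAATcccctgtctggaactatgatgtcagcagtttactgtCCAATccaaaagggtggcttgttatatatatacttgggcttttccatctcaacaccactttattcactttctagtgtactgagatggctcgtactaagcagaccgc
H3c2, lower in the knockout, chr13:23752095-23752394, plus strand: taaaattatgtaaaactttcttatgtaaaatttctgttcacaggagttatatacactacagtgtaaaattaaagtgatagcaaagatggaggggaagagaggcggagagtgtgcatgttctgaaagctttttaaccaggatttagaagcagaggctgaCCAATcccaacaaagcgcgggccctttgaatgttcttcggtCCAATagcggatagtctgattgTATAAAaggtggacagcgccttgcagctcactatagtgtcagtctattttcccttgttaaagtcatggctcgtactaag
H4c6, higher in the knockout, chr13:23551619-23551918, minus strand: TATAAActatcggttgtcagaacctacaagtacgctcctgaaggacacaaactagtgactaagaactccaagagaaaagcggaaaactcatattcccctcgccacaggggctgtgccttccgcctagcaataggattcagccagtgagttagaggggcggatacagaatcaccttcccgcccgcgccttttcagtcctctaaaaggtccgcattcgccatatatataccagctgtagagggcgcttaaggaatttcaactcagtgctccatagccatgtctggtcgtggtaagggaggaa
H4c18, lower in the knockout, chr13:21832148-21832447, minus strand: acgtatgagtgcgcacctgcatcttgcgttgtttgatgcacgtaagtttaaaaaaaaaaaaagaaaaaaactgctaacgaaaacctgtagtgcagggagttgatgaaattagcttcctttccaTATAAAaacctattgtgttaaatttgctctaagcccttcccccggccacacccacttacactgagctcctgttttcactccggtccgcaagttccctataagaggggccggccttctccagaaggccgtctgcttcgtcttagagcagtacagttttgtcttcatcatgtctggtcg

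CCAAT was found in 44 of the 52 windows (84.6%), against 37.4% of 32851 RefSeq promoter windows of the same length. It was in all 17 H2A, all 14 H2B and all 10 H3 windows matched, and in 3 of the 11 H4 windows. TATAAA on either strand was in 30 of 52 (57.7%, against 13.6%), and the octamer in 13 (25%, against 1.74%), of which 6 were H2A and 7 H2B windows. Neighbouring H2A and H2B genes often lie head to head, so their windows can cover the same bases. At the usual place of a TATA box, with TATAAA on the gene's own strand starting 20 to 40 bases before the start, 7 of 52 windows matched (13.5%, against 1.99%). In the windows shown, these were H3c2, 29 bases before its start, and H2ac6, 32 bases before. The TATAAA of H4c18, H3c11 and H4c6 began 127, 147 and 250 bases before the start, that of H2ac7 lay 30 bases after it, and that of H2bc12 was on the other strand. The search took exact letters, so other forms of a TATA box were not counted. For instance, the H3c11 and H4c6 windows hold tatatata nearer the start than their TATAAA. H2bc12 held the octamer 30 bases before its start. H4c6 and H4c18 held neither CCAAT nor the octamer. By direction, CCAAT was in 2 of the 3 matched genes that rose and in 9 of the 10 that fell, and TATAAA on either strand in 3 of 3 and 6 of 10, but in the 20 to 40 base stretch in 1 of 3 and 1 of 10. These are matches of letters in a window, not measured binding sites.

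H2A, which pairs with H2B at the faces of the nucleosome, had the most lower calls and 1 higher call. Of 17 H2A genes, 13 were tested, 1 rose (7.69%, against 10.3% of all genes) and 6 fell (46.2%, against 10.9%). The median log2 fold change of the 13 was -1.12. H2ac6, on chromosome 13 at 23865450 to 23867931 (minus strand, GRCm39), had 257, 283 and 276 normalized reads in the WT libraries and 492, 581 and 637 in the knockout ones. Every knockout library lay above every WT library, and the level rose 2.10-fold, from 272 ± 13.4 to 569.8 ± 72.9 (log2 fold change 1.06, SE 0.12, limma adjusted p 0.000658). H2ac7, at 23758555 to 23759126 (plus strand), went the other way, with 224, 179 and 204 in WT and 56.3, 48.5 and 28.9 in the knockout. It was 4.54-fold lower in the knockout, with no overlap of the groups (log2 fold change -2.20, SE 0.27, limma adjusted p 0.000902). H2ac7 had 354 normalized reads per kb of gene length in WT and H2ac6 109.6. In the knockout H2ac7 had 78.0 per kb and H2ac6 229.6, so the pair changed order on that scale alone. The annotated lengths are 572 bases for H2ac7 and 2482 for H2ac6, and without dividing by them H2ac6 was higher in every library.

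The other H2A genes that fell did so in all 3 knockout libraries. H2ac11, at 22226630 to 22227114, had 166, 137 and 168 normalized reads in the WT libraries and 24.1, 25.9 and 50.6 in the knockout ones (4.67-fold lower, limma adjusted p 0.00165). H2ac10, at 23718076 to 23718474, had 142, 112 and 114 in WT and 12.1, 45.3 and 13.02 in the knockout (5.21-fold lower, limma adjusted p 0.00730). Its second knockout library stood well above the other 2, yet below every WT library. H2ac4 fell from 133 ± 14.2 to 43.8 ± 18.6 and H2ac24 from 88.0 ± 16.4 to 22.0 ± 6.83 (limma adjusted p 0.00671 and 0.00430). H2ac12 fell from 69.1 ± 7.02 to 32.1 ± 10.5 (limma adjusted p 0.0346). Without any 1 WT library, H2ac12 no longer passed (0.111 to 0.162), nor did H2ac10 (0.0505 to 0.0591), and H2ac4 did not pass without the second WT library (0.0569). Of the 6 H2A genes that did not pass, H2ac22 came nearest, with 53.2, 44.2 and 44.3 in WT and 81.8, 92.2 and 66.6 in the knockout (limma adjusted p 0.0580).

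H2B, the partner of H2A, had 1 call. Of 17 genes, 13 were tested and none rose. The 1 lower call (7.69%, against 10.9% of all genes) was H2bc12, at 22220040 to 22220515 (plus strand). It had 14.9, 14.1 and 15.0 normalized reads in WT libraries and no read in any knockout library, at least 3.33-fold lower against the mean knockout floor of 3 reads per library (limma adjusted p 0.00271). Its 68 WT reads make it a gene of low coverage. The most covered H2B genes did not pass the test. H2bc4, at 23868182 to 23876891, had 173, 179 and 181 in WT and 223, 146 and 226 in the knockout, with 1 knockout library below the WT range and 2 above it (log2 fold change 0.13, limma adjusted p 0.669). H2bc6 was at 96.0 ± 11.8 and 75.6 ± 13.8, on a row that spans the linker histone gene H1f4 on the same strand, so reads of H1f4 cannot be told apart from its own unless the counting separated them. H2bc3 was at 54.5 ± 12.1 and 62.5 ± 18.02. In H2bc11 all knockout libraries were below WT (53.2, 48.5 and 40.2 in WT, 8.05, 16.2 and 30.4 in the knockout), with a limma adjusted p of 0.0612. The median log2 fold change of the 13 tested H2B genes was -0.65 as fitted and -0.57 as a log2 ratio of means.

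H3, whose tail carries many of the best studied histone marks, held both the highest and the lowest fitted log2 fold change of the 47 genes. Of 12 genes, 10 were tested, 2 rose (20%, against 10.3% of all genes) and 2 fell (20%, against 10.9%). H3c11, at 21967130 to 21967540 (minus strand), had 30.5, 32.5 and 41.6 normalized reads in the WT libraries and 278, 296 and 297 in the knockout ones. The groups were far apart and each was tight, and the level rose 8.32-fold (log2 fold change 3.03, SE 0.19, limma adjusted p 2.5e-05). It passed without any 1 library, with limma adjusted p between 0.000430 and 0.000762. H3c7, at 23728222 to 23729482 (plus strand), had 83.1, 43.6 and 60.6 in WT and 96.6, 192 and 181 in the knockout. Its first knockout library was close to the highest WT library, and the 2.51-fold rise (limma adjusted p 0.0257) did not pass without any 1 WT library or without the second or the third knockout library (0.0530 to 0.118).

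H3c2, at 23936250 to 23936869 (plus strand), had 98.0, 64.4 and 79.7 normalized reads in the WT libraries and 0, 0 and 7.24 in the knockout ones. Its reads numbered 373 over the WT libraries and 5 over the knockout libraries (fitted log2 fold change -5.32, SE 0.86, limma adjusted p 0.00392). H3c3, its neighbour at 23928956 to 23929585 (minus strand), had 46.7, 52.8 and 53.1 in WT and 8.05, 6.47 and 11.6 in the knockout, 5.85-fold lower with no overlap (limma adjusted p 0.00452, and 0.0531 and 0.0545 without the second and without the third WT library). H3c4 was lower in each knockout library (34.4, 38.0 and 43.6 in WT, 12.1, 17.8 and 0 in the knockout) without passing (limma adjusted p 0.1004). The other 6 H3 genes tested are H3c4, H3c1, H3c6, H3c8, H3c10 and H3c15, and none passed. All 6 had a fitted log2 fold change below 0 and at least 1 knockout library without reads. By group means H3c1 (12.7 in WT, 17.5 in the knockout) and H3c15 (7.26 and 8.74) were higher in the knockout, so their sign depends on the scale. The class median was -2.12 as fitted and -1.87 as a log2 ratio of means.

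H4, the most conserved core histone, had the most abundant gene, which did not pass the test. H4c4, at 23765581 to 23766718 (plus strand), had 966, 680 and 790 normalized reads in the WT libraries and 841, 708 and 1046 in the knockout ones, overlapping groups with a log2 fold change of 0.09 (SE 0.16, limma adjusted p 0.742). Per kb of gene length it was at 714 in WT and 760.2 in the knockout, the highest of all 58 genes in both. Of 12 H4 genes, 11 were tested, 2 rose (18.2%, against 10.3% of all genes) and 1 fell (9.09%, against 10.9%). H4c14, on chromosome 3 at 96168998 to 96170627 (minus strand), had 90.9, 88.4 and 86.5 in WT and 274, 202 and 246 in the knockout, a 2.72-fold rise without overlap (log2 fold change 1.42, SE 0.16, limma adjusted p 0.000703). H4c6, at 23735432 to 23735822 on chromosome 13, had 74.7, 65.1 and 64.7 in WT and 135, 133 and 207 in the knockout, a 2.32-fold rise (limma adjusted p 0.00786). Every knockout library of H4c6 lay above WT, but the call was lost without the second or the third WT library (0.0517 to 0.0533).

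H4c18, at 22015937 to 22016366 on chromosome 13, had 25.3, 17.2 and 22.5 normalized reads in the WT libraries and none in the knockout ones, at least 4.92-fold lower (limma adjusted p 0.00167). H4c3 was at 208 ± 32.4 and 249 ± 62.9 and did not pass. H4c12 was slightly higher in every knockout library (69.5, 63.8 and 70.2 in WT, 75.1, 74.4 and 72.4 in the knockout) with a limma adjusted p of 0.698. The class median log2 fold change was -1.22 as fitted and -0.64 as a log2 ratio of means, with 6 of the 11 genes below 0 and 5 above on both scales.

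Summed over all classes on the size-factor scale, the rises and falls of single genes largely offset each other. All 58 genes together had 3601 ± 301 normalized reads in WT libraries and 3686 ± 276 in the knockout, overlapping groups with a log2 ratio of 0.03. As a share of all reads, where no size factor enters, they took 0.233% ± 0.0172 in WT and 0.203% ± 0.0146 in the knockout. The H2A sum was 1348, 1273 and 1324 in WT and 940.1, 1047 and 1143 in the knockout, lower in every knockout library (log2 ratio -0.33). The H2B sum was 592, 554 and 578 against 544, 427 and 508, also lower in every one (-0.22). The H3 sum was 364, 282 and 328 against 461, 527 and 521, higher in every one (0.63). The H4 sum was 1607, 1202 and 1353 against 1702, 1430 and 1807, with overlap (0.25).

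Scaling by library totals shifted the median of all genes by -0.20 and gave log2 ratios of -0.57 for H2A, -0.45 for H2B, 0.40 for H3 and 0.02 for H4. The gene left out of each class was the one with the highest mean over all libraries. One gene decided the direction of H3: without H3c11 the H3 sum was 290 ± 42.0 in WT and 213 ± 25.7 in the knockout, a log2 ratio of -0.44 in place of 0.63. H3c11 led its class only through the knockout (34.9 in WT, where H3c2 had 80.7, and 290 in the knockout). Leaving it out was thus bound to lower the ratio, so the reversal describes its weight and is no independent check. Without H2ac6 the H2A sum was 1043 ± 50.6 and 473 ± 30.0, a log2 ratio of -1.14. Without H4c4 the H4 sum was 575 ± 60.6 and 781 ± 71.9, and the groups no longer overlapped (0.44). No p-value is given for a sum over genes.

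**Figure D2:**
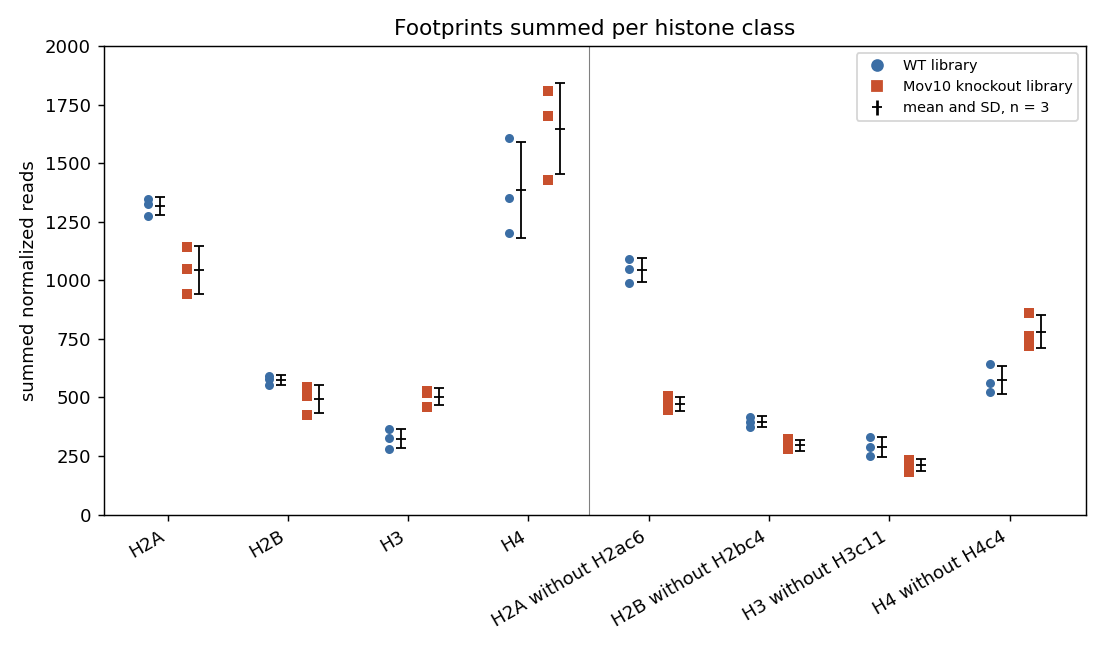
Summed normalized reads of each core histone class in each library, as points with the group mean and SD. Sums are shown with every gene of the class and without the gene with the highest mean over all libraries (H2ac6, H2bc4, H3c11 and H4c4). H3c11 has that place through its knockout level. The H3 sum is higher in the knockout with H3c11 (325 in WT, 503 in the knockout) and lower without it (290 and 213).

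The split of a class's reads among its genes changed most for H2A and H3. H2ac6 held 20.7% ± 1.58 of H2A reads in WT and 54.5% ± 1.87 in the knockout, while H2ac7 went from 15.4% to 4.39%. H3c11 held 10.9% ± 2.21 of H3 reads in WT and 57.8% ± 2.14 in the knockout. H3c2 went from 24.7% ± 2.08 to 0.463% ± 0.802, H3c3 from 15.9% to 1.73% and H3c4 from 12.1% to 2.00%. In H3 the WT reads were spread over several genes and the knockout reads lay mostly on H3c11 and H3c7, which had 18.9% and 30.7% with overlapping groups. In H4, H4c4 kept the largest share, with 58.4% in WT and 52.3% in the knockout, overlapping, while H4c14 went from 6.47% to 14.6% and H4c6 from 4.95% to 9.56%. In H2B, H2bc4 went from 30.9% to 39.8%, higher in each knockout library. These are shares of reads, not of protein, and they depend on how reads matching several copies were assigned, which is not known here.

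**Figure D3:**
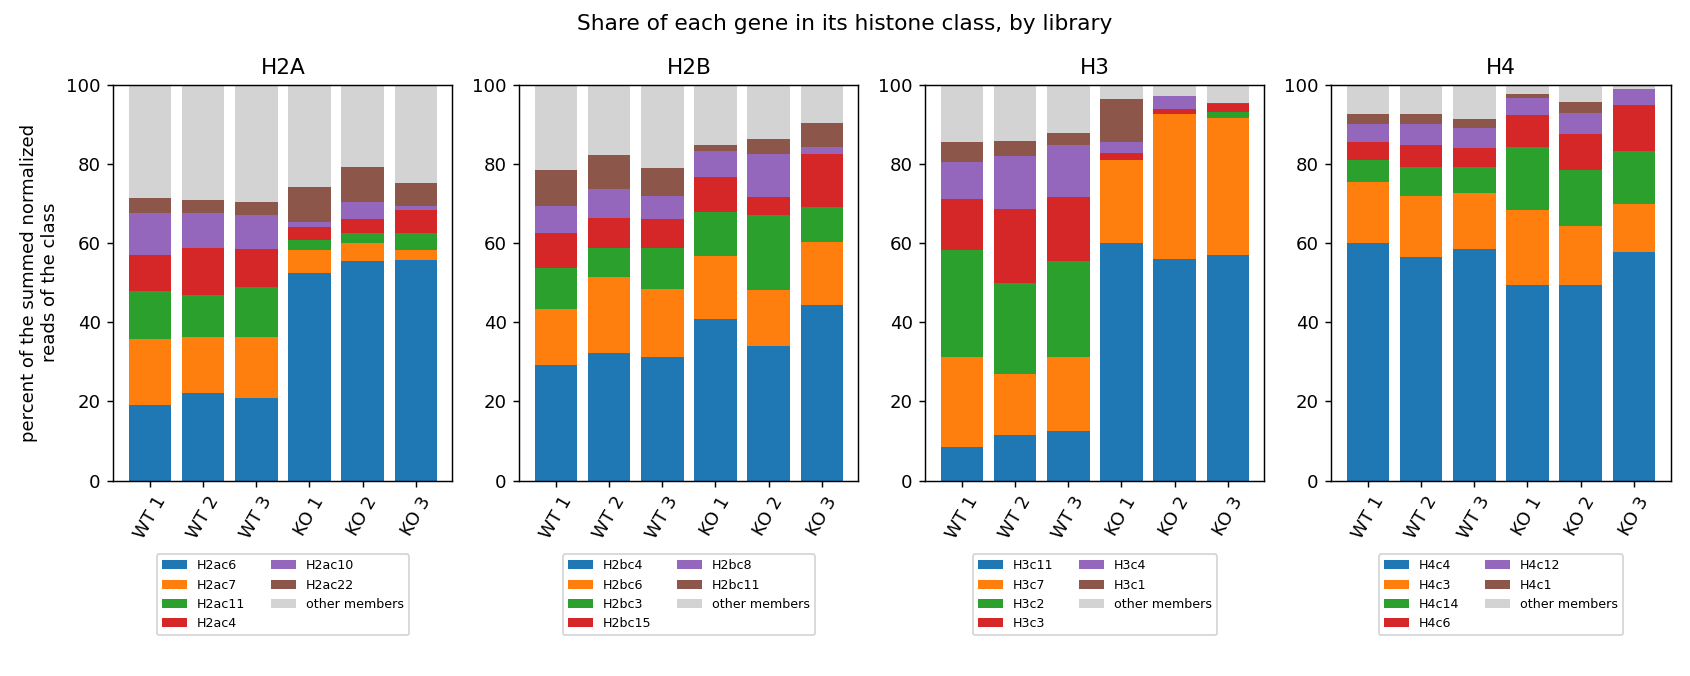
Share of each class's summed normalized reads (percent) held by its most abundant genes in each library, as stacked bars with the other genes in grey. On average H3c11 goes from 10.9% to 57.8% of H3 reads and H2ac6 from 20.7% to 54.5% of H2A reads.

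Position on the chromosomes was not part of the choice of genes. On GRCm39, genes less than 100 kb apart formed 5 blocks, 1 on chromosome 3 and 4 on chromosome 13. For calls within a block, the shares of all genes were 10.3% higher and 10.9% lower. The smallest block with tested genes, at 22219334 to 22227846 on chromosome 13, holds H2ac12, H2bc12, H4c9, H2ac11 and H2bc11. All 5 of its genes had a log2 fold change below 0, as did 33 of all 47 core histone genes tested, and 3 of the 5 were called. The sum of this block was 305, 276 and 305 normalized reads in the WT libraries and 61.7, 85.7 and 114 in the knockout ones. The largest block, at 23715220 to 23946369, has 24 genes, all tested, of which 3 rose and 5 fell, with sums of 2626 ± 250 in WT and 2611 ± 208 in the knockout. The block at 21899933 to 22021700 has 17 genes, 13 tested, 1 risen and 2 fallen, and its sum was 464 ± 28.9 in WT and 638 ± 27.4 in the knockout. The chromosome 3 block has 10 genes, 5 tested, with H4c14 risen and none fallen (216 ± 25.1 and 349.8 ± 41.7). Genes called in opposite directions lay in the same block: H3c7 and H4c6, which rose, are located between H2ac10 and H2ac7, which fell. In the fifth block neither H2ac1 nor H2bc1 was tested.

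**Figure D4:**
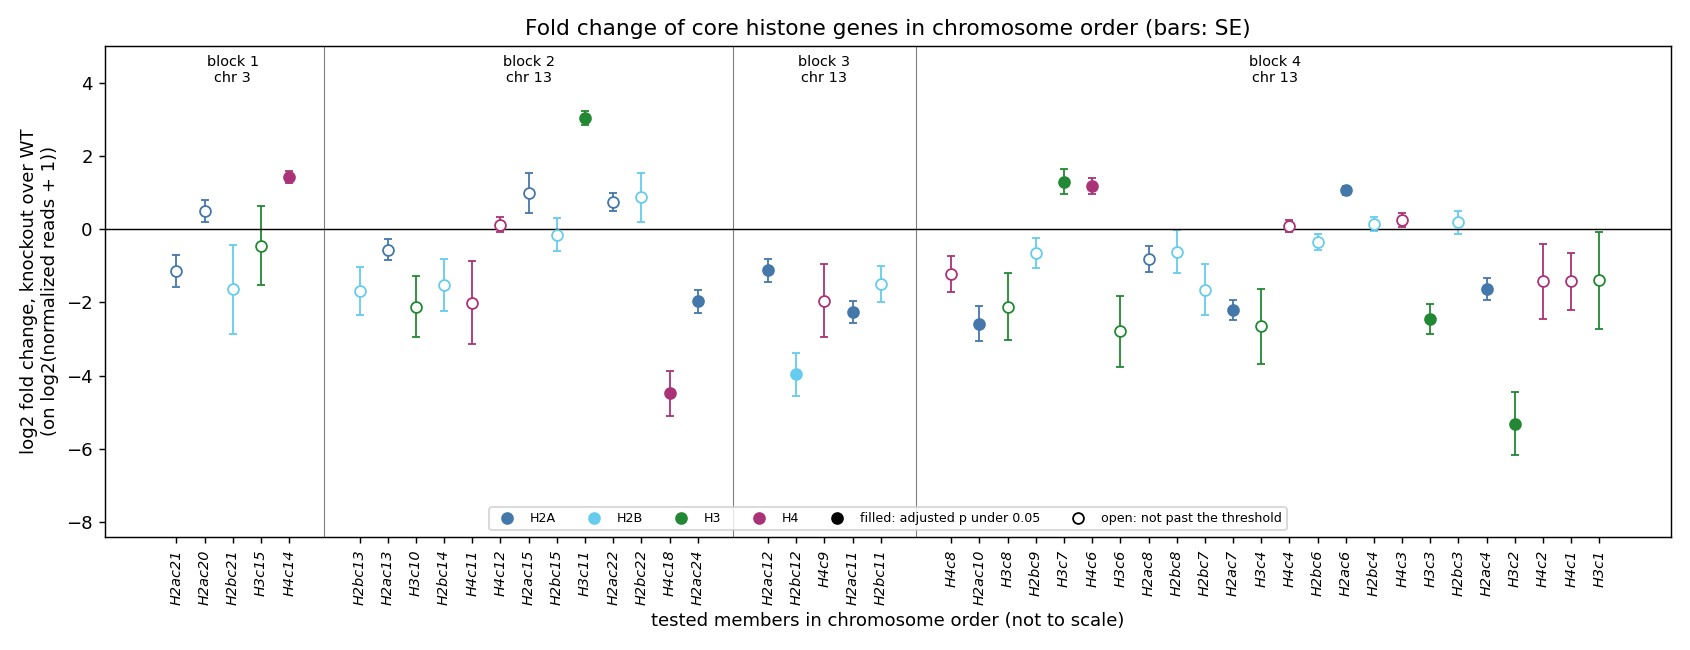
Log2 fold change (knockout over WT) of the tested core histone genes in their order along chromosomes 3 and 13 (not to scale), coloured by class, filled where called, with SE bars and lines between the blocks. All 5 genes of the H2ac12 to H2bc11 block lie below 0, whereas the 24-gene block holds 3 risen and 5 fallen genes.

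Head-to-head H2A and H2B genes share a start region, and 12 such pairs lay within 1000 bases of each other. In 9 pairs both genes were tested: both had a log2 fold change below 0 in 5, both above 0 in 2, and they had opposite signs in 2. Among all tested genes of these classes, 9 of 13 H2A and 10 of 13 H2B genes were below 0. Whether paired genes shared a sign more often than other genes was not tested. One of the opposite pairs, H2ac15 and H2bc15, rests on the scale: H2bc15 was at 45.1 in WT and 45.2 in the knockout, so by group means 3 pairs were both higher and 1 opposite. H2ac12 and H2bc12, whose starts are separated by 301 bases, were the 1 pair with both called, each lower. H2ac6 and H2bc4, 250 bases apart, had log2 fold changes of 1.06 and 0.13, the first called and the second not. H2ac7 and H2bc7, 184 bases apart, were at -2.20 and -1.66, again with the H2A gene alone called. H2bc7 was at 14.1 in WT and 4.63 in the knockout.

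**Figure D5:**
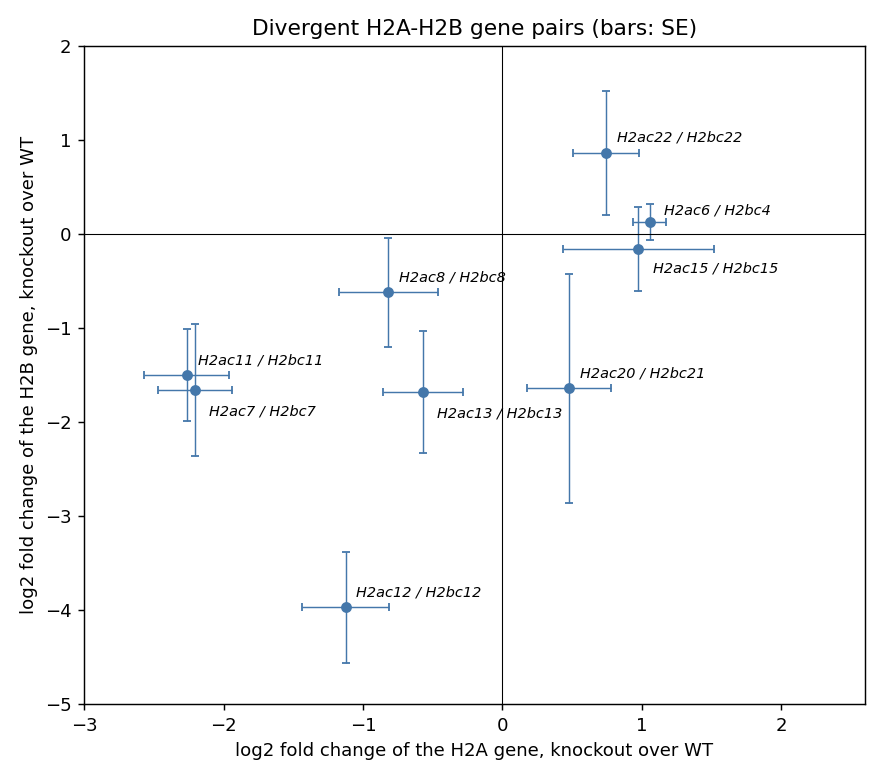
Log2 fold change of the H2A gene (x axis) and of the H2B gene (y axis), knockout over WT, in the 9 head-to-head pairs with both genes tested, with SE bars. In 5 pairs both lie below 0, in 2 both lie above 0, and H2ac6 with H2bc4 is at 1.06 and 0.13.

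The calls were spread unevenly over levels, as were those of all genes. Of 9 genes whose mean over all libraries reached 100 normalized reads, 5 rose and 1 fell, where 28.9% of the 4056 genes at that level were higher and 14.6% lower. Of 10 genes from 50 to 100, none rose and 5 fell, where 8.97% of all genes were higher and 13.1% lower. Of 20 genes from 10 to 50, 3 fell, where 6.93% of all genes were lower, and of 8 genes from 1 to 10, 1 fell, where 10.5% were. The mean is taken over both groups, so a gene that rose is moved up the scale. Across the 47 genes the mean level and the fitted log2 fold change had a Spearman correlation of 0.509 (0.412 with log2 ratios of means), and across all 17114 genes 0.126 (-0.0067), given as descriptions over genes that share libraries and depth. The annotated gene length had a median of 1261 bases in the 5 genes that rose, 479 in the 10 that fell and 532 in the 32 others, with ranges of 391 to 2482, 399 to 630 and 312 to 4446. The part of abundance, length and depth in the calls was not tested.

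The replication-dependent linker histones, which bind the DNA between nucleosomes, all passed the test: of 5 genes, 4 fell (80%) and 1 rose (20%). Among all genes 10.9% were lower and 10.3% higher. All 5 linker genes were at 100 normalized reads or more, where 14.6% of all genes were lower and 28.9% higher. H1f3 had 1469, 1454 and 1479 normalized reads in the WT libraries and 265, 293 and 187 in the knockout ones, without overlap (log2 fold change -2.58, SE 0.15, limma adjusted p 2.2e-05). H1f1 fell from 1163 ± 36.5 to 660.1 ± 65.9 (limma adjusted p 0.000530) and H1f4, whose row lies within that of H2bc6, from 158 ± 13.5 to 47.0 ± 19.7 (0.00709), while H1f5 rose from 975 ± 104 to 1761 ± 265 (0.00236). The remaining gene, H1f2, fell from 473 ± 37.0 to 331 ± 54.7 (0.0286). Of these, 2 to 4 stayed lower calls when 1 library was left out. Among 11 replacement variants, which are made outside S phase too, 10 were tested, 1 rose, 1 fell and 8 did not pass. That was 10% in each direction, near the shares of all genes. The median log2 fold change of the 10 was -0.88, however, against -0.17 for all genes. The count of lower variants was 3 with edgeR, DESeq2 or library totals. H2az1, the H2A.Z variant, fell from 141 ± 4.60 to 80.2 ± 18.4, and Macroh2a1 rose from 355 ± 17.1 to 481 ± 66.1 (limma adjusted p 0.0239 and 0.0363), neither called without any 1 WT library. H3f3a, an H3.3 gene, and H2ax, the variant phosphorylated at DNA breaks, did not pass (0.0511 and 0.0655).

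Of 19 genes of histone transcription and 3′ processing, 6 rose (31.6%, against 10.3% of all genes and 28.9% of those at 100 normalized reads or more) and 2 fell (10.5%, against 10.9% and 14.6%). Of the 19, 11 were at that level, and of these 5 rose and 2 fell. Slbp, which encodes the stem-loop binding protein, had 227, 225 and 214 normalized reads in the WT libraries and 406, 395 and 436 in the knockout ones, a 1.86-fold rise without overlap (limma adjusted p 0.000828). Ncbp2, a subunit of the nuclear cap-binding complex, rose 7.71-fold, from 99.0 ± 11.9 to 763 ± 144 (limma adjusted p 1.6e-05), while its partner Ncbp1 fell from 352 ± 14.3 to 253 ± 3.44 (0.0146). The count of lower genes there was 0 without any 1 WT library, and that of higher genes 3 without the third WT library. Cstf2 and Cstf2t, paralogous cleavage stimulation subunits, rose 2.33-fold and 2.35-fold (limma adjusted p 0.000747 and 0.00833).

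Of 22 histone chaperones and enzymes that acetylate new histones, 11 rose (50%, against 10.3% of all genes) and 1 fell (4.55%, against 10.9%). Of the 22, 19 were at 100 normalized reads or more. At that level 11 of the 19 rose and 0 fell, where 28.9% of all genes rose and 14.6% fell. Rbbp4, a histone-binding subunit of the CAF-1 chaperone, rose from 691 ± 51.3 to 1938 ± 81.2, and Nasp, an H3 and H4 chaperone, from 416 ± 36.1 to 939 ± 63.6 (limma adjusted p 1.2e-05 and 0.000117). Supt16, a subunit of the FACT complex, and Nap1l4, an H2A and H2B chaperone, rose 1.92-fold and 2.10-fold. The 1 that fell was Asf1a, an H3 and H4 chaperone, with 81.2, 77.9 and 97.4 in WT and 17.4, 11.3 and 13.02 in the knockout (limma adjusted p 0.00111). Between 8 and 11 of the list were higher when 1 library was left out, and 5 without a variance trend.

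The S phase list covers the setting in which these histones are normally made. Of its 40 tested genes, 11 rose (27.5%, against 10.3% of all genes) and 3 fell (7.5%, against 10.9%), with a median log2 fold change of 0.18. Of the 40, 31 were at 100 normalized reads or more. At that level 11 of the 31 rose and 1 fell, where 28.9% of all genes rose and 14.6% fell. Rrm1, the large subunit of ribonucleotide reductase, rose from 1128 ± 61.9 to 2281 ± 1.72, and the helicase subunit Mcm4 from 437 ± 33.2 to 808 ± 24.9 (limma adjusted p 2.5e-05 and 0.000360). Pole, the leading-strand polymerase, and Uhrf1, which helps copy DNA methylation, rose 1.84-fold and 1.90-fold. With library totals as the scale the list had 7 higher and 9 lower genes. Without 1 library it had 6 to 11 higher and 0 to 5 lower. Of 16 mitosis genes, 5 rose (31.25%, against 10.3% of all genes) and 3 fell (18.75%, against 10.9%), with a median of 0.01. Of the 16, 11 were at 100 normalized reads or more. At that level 5 of the 11 rose and 2 fell, where 28.9% of all genes rose and 14.6% fell. Top2a, which untangles chromosomes, rose 1.68-fold and Cdc20, an activator of the anaphase-promoting complex, 2.61-fold, while the mitotic kinase gene Aurkb fell from 376 ± 5.12 to 165 ± 23.3. The lists name cell cycle genes but do not count cells in S phase.

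Markers of several lineages moved with genotype beside these genes, where 10.3% of all genes were higher and 10.9% lower. The summed level of 10 erythroid markers was 3613 to 3742 in WT and 5938 to 6627 in the knockout, with 7 risen and none fallen, and that of 10 B cell markers 1054 to 1097 and 2217 to 2459, also with 7 risen. Of 11 neutrophil and granulocyte precursor markers 5 rose and 3 fell, with sums of 31115 to 37059 and 46587 to 48656. Mpo alone went from 12660 ± 1426 to 29006 ± 782, a larger rise than that of the sum. The 10 stem and progenitor markers summed to 3677 to 3741 and 3879 to 4257 (1 risen), with a median log2 fold change of -0.22. The risen one, Myb, went from 1935 ± 30.4 to 2481 ± 230, also a larger rise than that of its sum. The 6 monocyte and macrophage markers summed to 2183 to 2524 and 1647 to 1894 (2 fallen), and the 7 T cell markers to 129 to 147 and 102 to 110.0 (none called). Of 6 megakaryocyte markers 5 were tested and 1 rose, with sums of 489 to 547 and 592 to 887, and Gp1bb had no read in any library. The part of these lineages in the histone changes was not tested.

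In the authors' deposited table of fold changes and p-values, 5 core histone genes were higher and 12 lower at an adjusted p under 0.05, where 6.58% of all rows with a p-value were higher and 5.2% lower. All 15 genes called by limma were among these 17 with the same direction, and the others were H3c4 and H2bc11, with adjusted p of 0.0282 and 0.0436 in the authors' deposited table. The authors' deposited table gave log2 fold changes of 2.97 for H3c11, 1.05 for H2ac6 and -3.87 for H3c2. The edgeR quasi-likelihood test on recovered reads tested 44 of the genes and called 6 higher and 11 lower (16.5% and 13% of the 10891 genes it tested), all 15 limma calls among them, with H2ac22 and H2bc11 added. DESeq2 on the same reads called 5 higher and 12 lower (12.4% and 9.55% of the 15041 genes it tested).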

How the data were processed

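Ribosome footprints of 24 to 36 nt from 3 WT and 3 Mov10 knockout libraries were analysed. The authors deposited signal values that equal read counts after division by a library's single size factor: 99.98% of 107192 values above 0 were whole reads within 0.05 read, and 5 genes that were not, none a core histone, were left out. The log2 fold changes, p-values and adjusted p-values deposited by the authors come from a test not stated in the sources used here. The deposited gene lengths and coordinates are on GRCm39, per the submitters' processing notes, and which aligner and counting tool were used, and whether strand was, is not given in the sources used here.

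The test was limma 3.58.1 (R 4.3.3) with a variance trend, fitted to log2(value + 1) by genotype alone over all genes averaging 1 or more normalized reads. A call needed an adjusted p (Benjamini-Hochberg) under 0.05. This scale shrinks folds of low genes but, where a single library has no read, can also enlarge them or turn their sign, so log2 ratios of group means were set beside the fit. Alternatives were a replicate block, other scalings, edgeR 4.0.16 and DESeq2 1.42.0 on recovered reads, other filters, a pseudocount of 0.1, no variance trend, and each library left out. Class sums have no test. Genes named are all called core histones, the 3 most abundant per class, those in counts of 5 or fewer, and up to 4 per related list by smallest p. H2bc7, Ncbp1, Asf1a, Kit, Mpo and Myb, and the 8 core histone genes without reads, were named after their values were seen. The genes, lists and tests were chosen with earlier results of these data known. The fits were tested on simulated data. The labels state no pairing of the libraries, so replicate numbers were not used as pairs in the main fit.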

Additional observations from a re-analysis of the deposited data

How the results depend on the processing

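Of the 15 called genes, 9 passed the threshold under every alternative run on them and none reversed; the exceptions were H2ac4, H2ac10, H2ac12, H3c3, H3c7 and H4c6. The count of higher genes, 5 in the report, was 3 to 5 with 1 library left out, 6 with edgeR, 4 without a variance trend and 5 under the other settings. The count of lower genes, 10 in the report, was 6 to 15 with 1 library left out (6 without the second WT library, 15 without the third knockout library), 12 with DESeq2, 11 with edgeR or library totals, 9 without a filter or a variance trend, and 10 otherwise. With the replicate number as a block the counts were 5 higher and 10 lower. There H2ac12 lost its call (limma adjusted p 0.0515) and 5 replacement variants were lower in place of 1. The labels give the libraries a shared number and state no pairing. After group means were removed, same-numbered libraries had correlations of -0.0061 to 0.012 over 10508 genes. With 3 libraries per genotype, these values cannot show that no pairing exists.

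Log2 ratios of the class sums under library totals were -0.57 for H2A, -0.45 for H2B, 0.40 for H3, 0.017 for H4 and -0.20 for all core histones, while the median of all genes shifted by -0.20. Without the gene of each class with the highest mean over all libraries they were -1.14, -0.43, -0.44, 0.44 and -0.39, which reversed H3. The H3 value without H3c11, chosen after seeing the data, is the same -0.44. With 1 library left out they ranged from -0.41 to -0.26 for H2A, -0.30 to -0.13 for H2B, 0.54 to 0.72 for H3, 0.15 to 0.37 for H4 and -0.03 to 0.10 for all. The cause of these moves was not tested beyond what each setting leaves out. Of the counts for related lists, 141 stayed within 1.5 times and 51 moved. Knockout libraries were the shallower ones, so low genes there are limited by a floor of 4.02 to 4.85 normalized reads.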
